A study of Homo sapiens with 6 samples.

Results

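The genes described here encode the nuclear pore complex and the factors that carry RNA through it. They were fixed by name, as 40 genes, and each of the 40 was found as a single locus among the 62828 loci of the deposited table. There are 23 nucleoporins and 17 genes of the TREX complexes, the transport receptors and their helpers. RNA came from K562, an established human line of chronic myelogenous leukemia, that had been given 300 nM of siRNA against HNRNPU, or oligos that served as the control. HNRNPU is a nuclear protein that binds RNA and chromatin, and the series title asks whether it sets where long noncoding RNAs lie in the cell. From each condition whole-cell, nuclear and cytosolic RNA was sequenced, which gives 6 groups of 1 library: knockdown whole-cell, nuclear and cytosolic, and control whole-cell, nuclear and cytosolic. With no replicate library, no difference below has a test, and every comparison describes these libraries. A factor of 1.5 was used as the rule of size, and that rule is not a test.

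The nuclear pore is a ring of many copies of its subunits set into the nuclear envelope. Scaffold subunits form outer and inner rings, subunits rich in phenylalanine and glycine line the channel, and filaments reach to the cytosol on one side and form a basket on the nuclear side. Spliced mRNA is bound by the TREX complex, made of the THO subunits and adaptors such as ALYREF, and is handed to the receptor pair NXF1 and NXT1, which moves through the channel. Exportins carry other cargoes out of the nucleus together with the GTPase Ran. The present data measure the RNAs of these genes, not the proteins and not transport itself.

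Values are FPKM, fragments per kilobase of transcript scaled to library size, so levels can be set side by side between genes. All 40 loci had values above 0 in the 6 libraries, all passed the minimum mean of 1 FPKM (12838 loci of the table did), and the lowest member mean was 7.49 FPKM. The libraries differed in depth: 1 FPKM over 1 kilobase stood for about 18.8, 39.1 and 14.8 fragments in knockdown whole-cell, nuclear and cytosolic RNA and 23.1, 19.6 and 13.3 fragments in control whole-cell, nuclear and cytosolic RNA. The member values rested on about 113 fragments or more, with a median of 1238. After knockdown HNRNPU itself stood at 43.0% of its control level in the whole-cell library, at 39.0% in the nuclear one and at 22.1% in the cytosolic one. Less RNA in each cell and fewer cells with a knockdown cannot be told apart in such bulk libraries. The nuclear RNA MALAT1 had a nuclear to cytosolic log2 ratio of 4.47 after knockdown and 3.82 in the control, and GAPDH, a cytosolic mRNA, had -2.25 after knockdown and -2.44 in the control. The erythroid factor GATA1 had 26.2 to 55.9 FPKM over the libraries, while the B-cell marker MS4A1 was listed at 0 in all of them.

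Promoter sequences of 4 members are shown: the 3 that hold the NRF1 site, and that of RAE1. They do not stand for the set as a whole. RefSeq's promoter table for GRCh38.p14 held 37 of the 40 members. In the window of 250 bases before to 50 bases after the start, 5 motifs were searched on both strands. The SP1 site was taken as GGGCGG, the site of factor NF-Y as CCAAT, the TATA box as TATAAA and the ETS site as CCGGAAG. The NRF1 site is a palindrome, which stands in capitals near the end of the NUP107, NUP50 and NUP62 runs. Motifs of different names may overlap. The ETS letters were in 15 of the 37 member promoters (40.5%), against 14.4% of the 14896 protein-coding promoters of the table. The NRF1 letters were in 3 member promoters (8.11%), all of nucleoporins, against 1.74% of all. The runs printed here are these 3, NUP107 (chr12:68686728-68686977, plus strand), NUP50 (chr22:45163675-45163924, plus strand) and NUP62 (chr19:49929505-49929754, minus strand), and that of RAE1 (chr20:57351292-57351541, plus strand), the member whose RNA differed most between conditions. Each run gives the 250 bases before the start, 5′ to 3′ on the gene's strand, with every match to any of the 5 motifs in capitals.
NUP107: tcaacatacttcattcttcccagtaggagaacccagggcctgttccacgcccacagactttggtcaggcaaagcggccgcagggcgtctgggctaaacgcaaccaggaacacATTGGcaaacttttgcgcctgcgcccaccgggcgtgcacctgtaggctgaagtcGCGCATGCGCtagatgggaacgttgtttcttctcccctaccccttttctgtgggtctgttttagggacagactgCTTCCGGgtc
NUP50: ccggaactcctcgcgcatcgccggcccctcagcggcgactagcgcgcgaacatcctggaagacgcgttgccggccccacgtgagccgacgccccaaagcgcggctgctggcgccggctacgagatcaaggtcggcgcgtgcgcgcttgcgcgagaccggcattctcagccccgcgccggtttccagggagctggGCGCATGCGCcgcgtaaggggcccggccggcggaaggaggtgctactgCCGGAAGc
NUP62: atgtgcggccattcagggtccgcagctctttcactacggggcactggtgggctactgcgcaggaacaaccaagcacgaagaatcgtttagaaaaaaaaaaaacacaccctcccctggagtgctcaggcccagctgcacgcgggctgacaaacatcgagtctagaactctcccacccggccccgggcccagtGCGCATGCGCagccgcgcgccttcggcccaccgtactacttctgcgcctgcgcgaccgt
RAE1: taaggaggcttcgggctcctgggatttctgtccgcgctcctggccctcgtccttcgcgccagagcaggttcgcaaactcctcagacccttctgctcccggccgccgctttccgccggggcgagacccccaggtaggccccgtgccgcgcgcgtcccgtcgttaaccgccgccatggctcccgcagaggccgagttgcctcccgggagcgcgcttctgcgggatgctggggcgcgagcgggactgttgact
The NUP107 run holds the NRF1 letters, and the CCAAT and ETS letters on the opposite strand. That of NUP50 holds the NRF1 and ETS letters, and that of NUP62 the NRF1 letters alone. RAE1 has none of the 5 motifs in its window. The SP1 letters were in 10 of 22 nucleoporin promoters (45.5%) and 14 of 15 promoters of the TREX and receptor genes (93.3%), against 59.5% of all protein-coding promoters. CCAAT was in 45.9% of member promoters against 36.4% of all, and TATAAA in 5.41% against 9.37%. These matches are descriptions of letters in a window. No binding was measured.

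The members spanned 5.41 to 77.2 FPKM in knockdown whole-cell RNA and 5.23 to 68.8 FPKM in control whole-cell RNA. Nucleoporins had a median of 20.1 FPKM (8.85 to 68.6) in knockdown whole-cell RNA and 17.7 FPKM (7.57 to 68.8) in control whole-cell RNA. The TREX and transport receptor genes had a median of 21.7 FPKM (5.41 to 77.2) after knockdown and 19.9 FPKM (5.23 to 64.8) in the control in the same preparation. The ranges of both groups overlap almost fully. XPO1, the exportin of proteins with a leucine-rich export signal and of some RNAs, had the highest mean of the 40 (74.3 FPKM). It had 77.2 FPKM in whole-cell, 75.3 FPKM in nuclear and 90.4 FPKM in cytosolic RNA after knockdown, against 64.8, 70.7 and 67.4 FPKM in the control. NUP210, a glycoprotein that spans the pore membrane, came next (mean 69.8 FPKM), followed by NUP214, a filament subunit (66.6 FPKM). K562 cells are known to carry a fusion of NUP214 with XKR3, and the locus values do not separate fused from normal transcripts. The lowest means were those of THOC6, a THO subunit (7.49 FPKM), and NUP35, an inner ring subunit (10.5 FPKM). THOC6 had 5.41 FPKM in whole-cell, 6.29 FPKM in nuclear and 11.4 FPKM in cytosolic RNA after knockdown, against 5.23, 5.92 and 10.7 FPKM in the control. In 27 of the 40 loci after knockdown and 28 in the control the whole-cell value lay below both fractions. The share of all loci with that order is not given here, so these counts are not read as a trait of the members. Each library carries its own scaling, so values of different preparations do not add up.

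Nuclear to cytosolic ratios placed the nucleoporin RNAs further toward the nucleus than those of the export genes. The median log2 ratio of nucleoporins was -0.24 after knockdown and -0.19 in the control. The TREX and transport receptor genes had -0.69 after knockdown and -0.76 in the control. All 10299 protein-coding loci analysed had medians of -0.61 after knockdown and in the control. The difference between the 2 groups' medians was thus 0.45 after knockdown and 0.57 in the control. No test of it was made, because genes are not replicates, and their ranges overlap: nucleoporins ran from -1.67 to 1.47 in the control and the export genes from -1.95 to 0.67. The sign of a median ratio depends on how a nuclear and a cytosolic library are scaled, and that of the nucleoporins was above 0 in both conditions under each of the 3 other scalings, whereas the order of the groups does not: nucleoporins were higher than export genes under each of them, by 0.37 to 0.56 in the control and by 0.45 to 0.63 after knockdown. In the control 17 of 23 nucleoporins and 8 of 17 export genes lay above the protein-coding median. At the fold rule, 2 members were at least 1.5-fold nuclear in the control, against 21.8% of all loci analysed, and 15 were at least 1.5-fold cytosolic, against 45.0%. After knockdown these counts were 3 (background 19.9%) and 16 (background 45.0%). Among 7994 protein-coding loci with at least 5 FPKM on average, the level class of the members, the nuclear shares were 8.64% after knockdown and 9.73% in the control, and the cytosolic shares 55.8% and 55.9%. At 2-fold, 1 member was nuclear after knockdown and 1 in the control (background 14.4% and 16%), and 11 and 10 were cytosolic (28.4% and 29.1%).

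**Figure D1:**
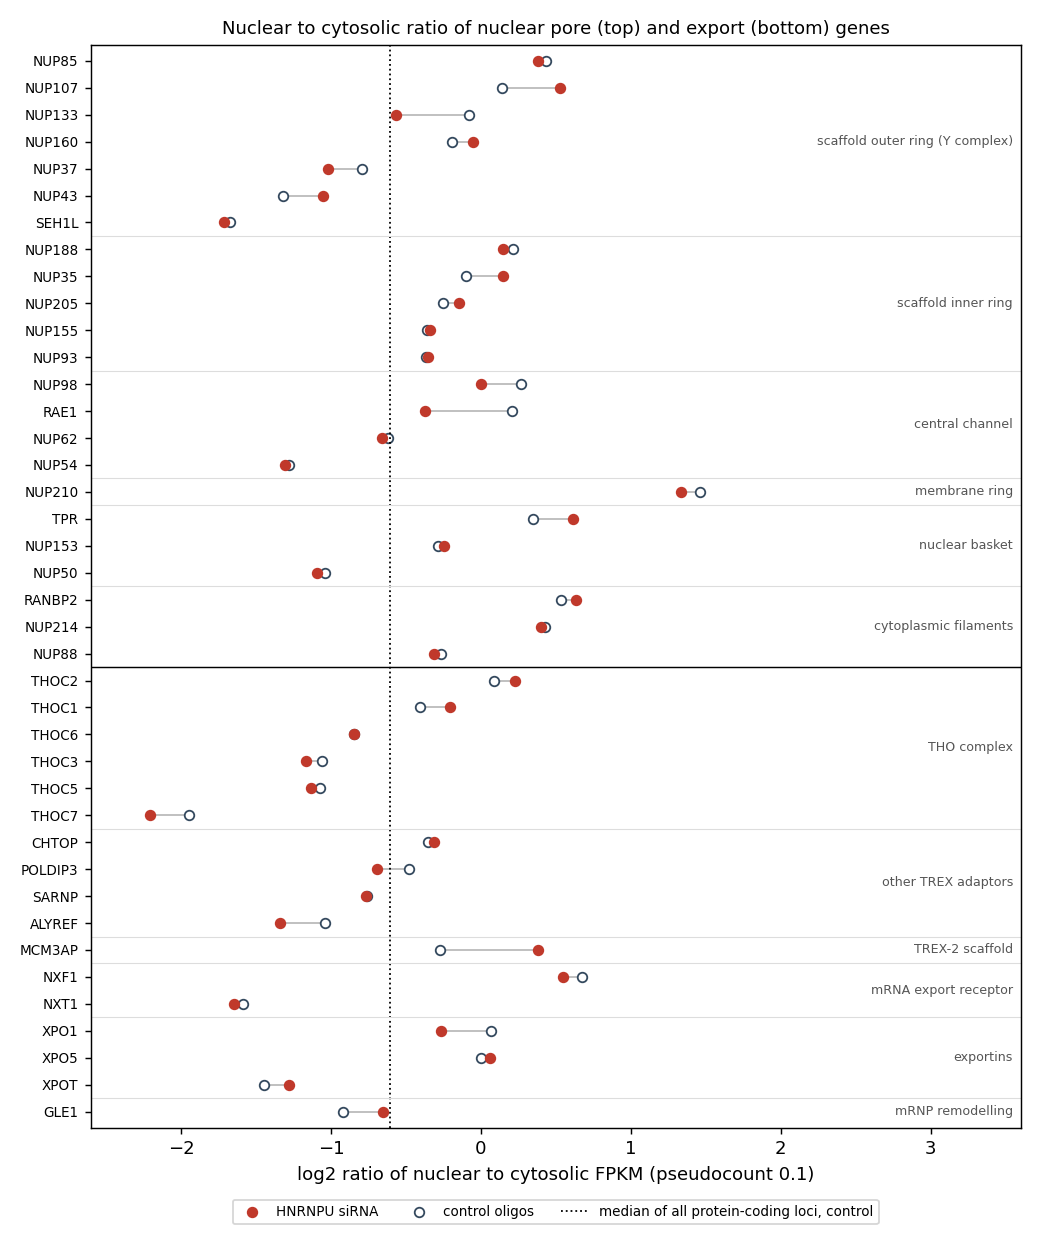
Nuclear to cytosolic ratio of each of the 40 loci, as the log2 ratio of FPKM with a pseudocount of 0.1, after HNRNPU siRNA (filled) and with control oligos (open), 1 library per value; nucleoporins are above the black line and TREX and transport receptor genes below it, and the dotted line is the control median of protein-coding loci. The order of genes is nearly the same in both conditions, NUP210 stands at the nuclear end (1.33 after knockdown and 1.47 in the control) and THOC7 at the cytosolic end (-2.21 and -1.95), and MCM3AP and RAE1 have the longest lines between conditions.

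NUP210 was the most nuclear of the members. It had 63.3 FPKM in whole-cell, 108 FPKM in nuclear and 42.7 FPKM in cytosolic RNA after knockdown, against 59.7, 107 and 38.5 FPKM in the control. Its nuclear level was thus 2.52 times the cytosolic one after knockdown and 2.77 times in the control. Of the other membrane nucleoporins, which are not members and were named after their values were seen, NDC1 had a log2 ratio of -0.26 after knockdown and -0.43 in the control, and POM121 -0.35 and -0.38. POM121C, a near copy of POM121 whose locus is merged with AC006014.7, had 0.08 after knockdown and 0.01 in the control. All 3 lay below NUP210 in both conditions.

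NXF1, the mRNA export receptor, came second in the control, while after knockdown RANBP2 and TPR also lay above it (log2 ratios of 0.63 and 0.62 against 0.55). It had 10.4 FPKM in whole-cell, 16.3 FPKM in nuclear and 11.1 FPKM in cytosolic RNA after knockdown, against 10.5, 17 and 10.6 FPKM in the control. NXF1 pre-mRNA is known for a retained intron whose RNA binds the NXF1 protein. Values per locus do not tell such a transcript from the spliced one. Its partner NXT1 lay at the other end, with 14.3 FPKM in whole-cell, 14.2 FPKM in nuclear and 44.7 FPKM in cytosolic RNA after knockdown, against 14.8, 14.7 and 44.4 FPKM in the control. The 2 subunits of one receptor thus had nuclear to cytosolic ratios of 1.47 and 0.317 after knockdown, and 1.60 and 0.331 in the control.

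The filament subunit RANBP2, a SUMO ligase that binds Ran, had log2 ratios of 0.63 after knockdown and 0.53 in the control. Near-identical copies of RANBP2 in the RGPD family make its value uncertain. NUP85, an outer ring subunit, had 14.1 FPKM in whole-cell, 18.6 FPKM in nuclear and 14.2 FPKM in cytosolic RNA after knockdown, against 15.7, 16.1 and 11.9 FPKM in the control. NUP214 had a nuclear level of 79.3 FPKM and a cytosolic level of 60.1 FPKM after knockdown, against 70.4 and 52.3 FPKM in the control. Both had more FPKM in the nuclear than in the cytosolic library of each condition.

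At the cytosolic end stood THOC7, a small THO subunit. It had 17.6 FPKM in whole-cell, 12.9 FPKM in nuclear and 59.9 FPKM in cytosolic RNA after knockdown, against 13.7, 11.5 and 44.8 FPKM in the control. SEH1L, which serves both the outer ring and a complex that senses amino acids, had 17.04 FPKM in whole-cell, 14.5 FPKM in nuclear and 47.9 FPKM in cytosolic RNA after knockdown, against 15.7, 12.8 and 41.1 FPKM in the control. XPOT, the tRNA exportin, had 42.8 FPKM in whole-cell, 38.5 FPKM in nuclear and 93.5 FPKM in cytosolic RNA after knockdown, against 37.0, 33.1 and 90.5 FPKM in the control. In each of these 3 genes the cytosolic FPKM was far above the nuclear one in both conditions.

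Within the subcomplexes the RNAs were spread rather than grouped. Outer ring subunits, which bind each other in a fixed Y-shaped unit, ran in the control from NUP85 (0.43) through NUP107 (0.14), NUP133 (-0.08), NUP160 (-0.19), NUP37 (-0.79) and NUP43 (-1.32) to SEH1L (-1.67). The 6 THO genes ran from THOC2 (0.09) and THOC1 (-0.41) to THOC7 (-1.95). The 5 inner ring genes lay closer together, from NUP188 (0.21) to NUP93 (-0.37). The 4 other TREX adaptors lay below 0 on the deposited scale, from CHTOP (-0.35) to ALYREF (-1.04).

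Transcript length went with this order across genes. The mean length of annotated coding transcripts was 4.11 kilobases at the median of the nucleoporins (1.55 to 7.19) and 2.57 kilobases for the TREX and receptor genes (0.826 to 6.41). Over the 40 members, Pearson's r between log2 length and the log2 nuclear to cytosolic ratio was 0.61 after knockdown and 0.56 in the control (Spearman's rho 0.57 and 0.51). Within nucleoporins alone r was 0.54 in both conditions, and within the 17 export genes 0.59 after knockdown and 0.48 in the control. Over 9919 protein-coding loci with a known length it was 0.32 after knockdown and 0.28 in the control. The genes share the same libraries and are not independent replicates, so these values are descriptions. Split at the members' median of 2.99 kilobases, the longer nucleoporins (14) had a median log2 ratio of -0.03 after knockdown and 0.03 in the control, and the longer export genes (6) -0.10 after knockdown and -0.14 in the control. The shorter nucleoporins (9) had -0.66 after knockdown and -0.62 in the control, against -0.76 and -0.85 for the 11 shorter export genes. The distance between the groups was smaller within each length class than over all members. XPOT stands apart from the trend, with a length of 6.41 kilobases and a ratio of -1.45 in the control.

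**Figure D2:**
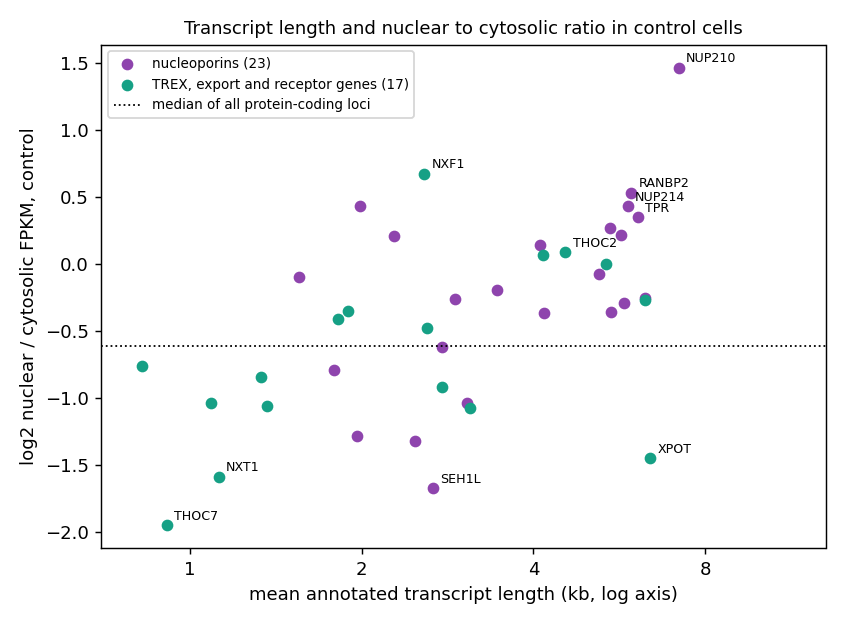
Mean length of annotated coding transcripts (kilobases, log axis) against the log2 nuclear to cytosolic FPKM ratio in control cells, 1 point per locus. Nucleoporins reach longer lengths and higher ratios, NUP210 (7.19 kilobases, 1.47) is at the upper right, THOC7 (-1.95) at the lower left, and XPOT lies below genes of like length.

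HNRNPU knockdown went with small differences in the level of these RNAs. At 2-fold, 0 members were apart in any preparation. Of all loci analysed 1.36% were 2-fold higher and 1.29% lower in whole-cell, 1.04% and 1.5% in nuclear, and 2.62% and 2.63% in cytosolic RNA. At 1.5-fold, 1 member was higher in whole-cell RNA, 0 in nuclear RNA and 1 in cytosolic RNA, and 0 were lower in any. Over all loci analysed the shares at least 1.5-fold higher were 4.76%, 3.86% and 6.41% in the same order, and the shares lower 3.86%, 4.74% and 5.90%. Those loci include many of low level. Among the 7994 protein-coding loci of at least 5 FPKM the shares higher were 1.85%, 1.53% and 1.63%, and the shares lower 0.901%, 1.23% and 1.29%. The member counts are near that background. The median log2 ratio of knockdown to control over the 23 nucleoporins was 0.12 for whole-cell, 0.18 for nuclear and 0.15 for cytosolic libraries. Over the 17 export genes it was 0.13, 0.09 and 0.07, and over protein-coding loci 0.07, 0.04 and 0.04.

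The direction was shared more than the size. After knockdown 21 of the 40 loci were higher in all 3 preparations, 12 nucleoporins and 9 export genes, and 1 (THOC5) was lower in all 3. Over all loci analysed 24.6% were higher in all 3 and 13.2% lower, and among protein-coding loci of at least 5 FPKM 29.9% and 12.0%. When each library was scaled to its protein-coding median, 15 members were higher in all 3 and 2 lower, against 17.3% and 19.0% of all loci. Since the 3 preparations may come from 1 culture per condition, which the sources used here do not state, they are not counted as replicates. On the deposited scale the genes higher in all 3 preparations were 3 of 7 in the outer ring (NUP160, NUP43 and SEH1L), 2 of 5 in the inner ring (NUP93 and NUP155), 3 of 4 in the channel (NUP62, NUP54 and RAE1) and 0 of 3 in the filaments. The same genes of these 4 groups had that sign under each of the 3 other scalings. RAE1 was counted in the channel group beside its binding partner NUP98, but it is an mRNA export factor and not a subunit of the channel lining. The basket (NUP153, TPR and NUP50) had 3 of 3 on the deposited scale and 2 under each other scaling, where TPR dropped out. The THO complex had 5 of 6 as deposited and 2 (THOC3 and THOC7) under each other scaling.

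**Figure D3:**
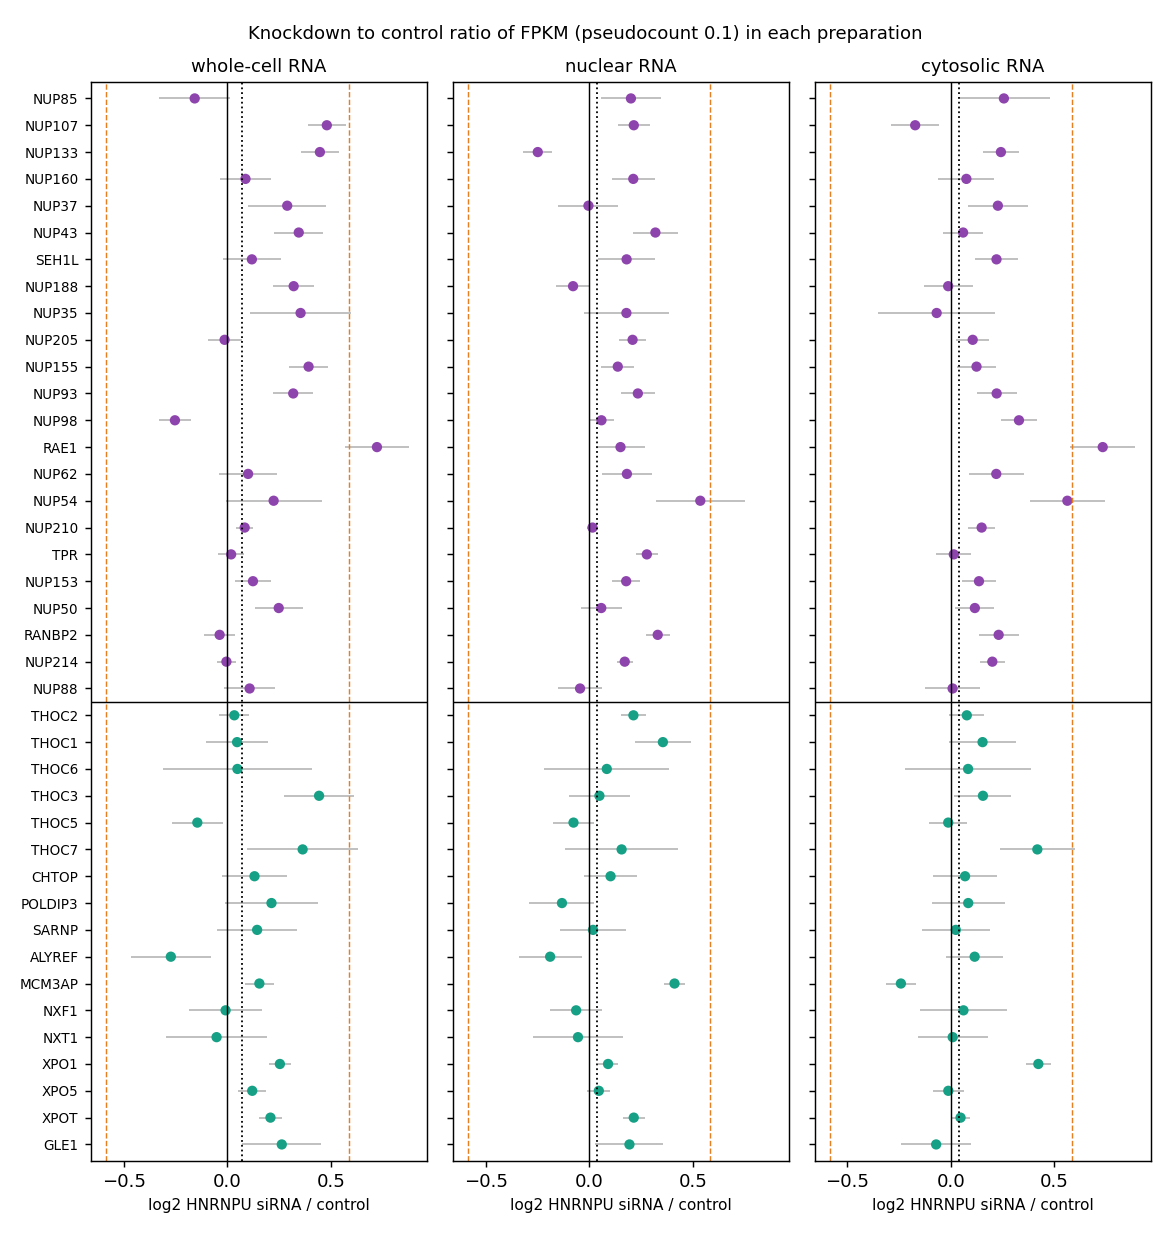
Log2 ratio of FPKM after HNRNPU siRNA to FPKM with control oligos (pseudocount 0.1) for each locus in 3 preparations; nucleoporins are purple and TREX and transport receptor genes green, grey bars are 1.96 times the estimated counting error, the dotted line is the median of protein-coding loci and dashed lines mark 1.5-fold. On the deposited scale most points lie slightly right of 0, and RAE1 passes the 1.5-fold line in whole-cell and cytosolic RNA.

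RAE1 was the exception in size. It encodes an mRNA export factor that binds NUP98 and also takes part in mitosis (chromosome 20, 55926065 to 55954267 on hg19). It had 20.4 FPKM in whole-cell, 23.4 FPKM in nuclear and 30.4 FPKM in cytosolic RNA after knockdown, against 12.3, 21.1 and 18.2 FPKM in the control. Whole-cell RNA thus had 1.66 times the control level, cytosolic RNA 1.67 times and nuclear RNA 1.11 times. On the log2 scale these are 0.72, 0.15 and 0.73 for whole-cell, nuclear and cytosolic RNA, with counting errors of 0.08, 0.06 and 0.08. The counting error here and below is 1 standard error from the estimated fragments, and covers neither culture nor library preparation. The direction held under each other scaling tried, where the whole-cell value ran from 0.65 to 0.69.

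NUP98, the binding partner of RAE1, had another pattern. Its gene also encodes the outer ring subunit NUP96, and its locus is merged with CHRNA10. It had 24.0 FPKM in whole-cell, 31.4 FPKM in nuclear and 31.4 FPKM in cytosolic RNA after knockdown, against 28.6, 30.1 and 24.96 FPKM in the control. It was lower in whole-cell RNA (log2 ratio -0.25) and higher in cytosolic RNA (0.33). NUP54, a channel subunit, was higher in each preparation, with 8.85 FPKM in whole-cell, 9.96 FPKM in nuclear and 24.8 FPKM in cytosolic RNA after knockdown, against 7.57, 6.84 and 16.8 FPKM in the control. Its log2 ratios of 0.54 in nuclear and 0.56 in cytosolic RNA lie just under the 1.5-fold line. The counting errors were 0.11 and 0.09. NUP62, which pairs with NUP54 in the channel, had log2 ratios of 0.10 (whole-cell), 0.18 (nuclear) and 0.22 (cytosolic). Its locus is merged with IL4I1 and SIGLEC11.

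Among scaffold genes with the same sign in all 3 preparations, NUP155, an inner ring subunit, had the largest whole-cell ratio. It had 18.1 FPKM in whole-cell, 20.1 FPKM in nuclear and 25.4 FPKM in cytosolic RNA after knockdown, against 13.8, 18.2 and 23.3 FPKM in the control, which gives log2 ratios of 0.39, 0.14 and 0.12. The basket genes had smaller whole-cell ratios. TPR, the main coiled-coil protein of the basket, had 35.3 FPKM in whole-cell, 41.8 FPKM in nuclear and 27.3 FPKM in cytosolic RNA after knockdown, against 34.9, 34.4 and 27.0 FPKM in the control. Its nuclear log2 ratio was 0.28 with a counting error of 0.03, against 0.02 and 0.01 in whole-cell and cytosolic RNA. NUP153, which anchors the basket, had 20.1 FPKM in whole-cell, 26.1 FPKM in nuclear and 31.0 FPKM in cytosolic RNA after knockdown, against 18.4, 23.1 and 28.2 FPKM in the control.

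In the THO complex THOC3 had the highest whole-cell ratio. It had 27.1 FPKM in whole-cell, 24.8 FPKM in nuclear and 55.8 FPKM in cytosolic RNA after knockdown, against 19.9, 24.0 and 50.1 FPKM in the control. Its locus spans 117 kilobases of a duplicated part of chromosome 5, so the value is uncertain. THOC2, the large scaffold subunit, had 35.0 FPKM in whole-cell, 44.5 FPKM in nuclear and 37.98 FPKM in cytosolic RNA after knockdown, against 34.2, 38.3 and 36.0 FPKM in the control. THOC5 had 17.3 FPKM in whole-cell, 21.5 FPKM in nuclear and 47.3 FPKM in cytosolic RNA after knockdown, against 19.1, 22.7 and 47.8 FPKM in the control. Its locus is merged with NIPSNAP1, so fragments of that gene are part of the value.

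ALYREF, the adaptor that joins TREX to NXF1, was lower in whole-cell and nuclear RNA and higher in cytosolic RNA. It had 21.8 FPKM in whole-cell, 28.1 FPKM in nuclear and 71.3 FPKM in cytosolic RNA after knockdown, against 26.3, 32.0 and 65.9 FPKM in the control. The log2 ratios were -0.27, -0.19 and 0.11, with counting errors of 0.10, 0.08 and 0.07. GLE1, which activates the helicase that strips NXF1 from mRNA at the cytosolic face, had 9.03 FPKM in whole-cell, 9.79 FPKM in nuclear and 15.4 FPKM in cytosolic RNA after knockdown, against 7.51, 8.55 and 16.2 FPKM in the control. Of the exportins, XPO1 had log2 ratios of 0.25 (whole-cell), 0.09 (nuclear) and 0.42 (cytosolic), XPOT 0.21, 0.22 and 0.05, and XPO5, which exports microRNA precursors, 0.12, 0.05 and -0.01.

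The question of the series title, asked of these mRNAs, is whether the nuclear to cytosolic ratio differed between knockdown and control. The localization shift is the log2 ratio after knockdown minus that in the control, so a positive shift is toward the nucleus. Its median was -0.03 for nucleoporins (-0.58 to 0.39) and -0.00499 for the export genes (-0.33 to 0.65), against 0.00261 for protein-coding loci. The order of the members was much the same in both conditions, with Pearson's r of 0.95 across the 40 loci. Of them, 34 had a shift under 0.3 in size. That is not particular to the members. The shift quartiles of protein-coding loci of at least 5 FPKM were -0.17 and 0.17, so most of those loci also lay under 0.3. At 1.5-fold, 1 was shifted to the nucleus and 0 to the cytosol, against 7.59% and 9.20% of all loci analysed and 2.50% and 2.95% of protein-coding loci of at least 5 FPKM. At 2-fold, 0 members were shifted, against 3.28% of all loci to the nucleus and 3.82% to the cytosol.

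MCM3AP had the highest shift. It encodes GANP, the scaffold of TREX-2, a complex that links transcribed genes to the pore (chromosome 21, 47655046 to 47706211 on hg19). The locus had 27.5 FPKM in whole-cell, 44.9 FPKM in nuclear and 34.4 FPKM in cytosolic RNA after knockdown, against 24.7, 33.7 and 40.7 FPKM in the control. The nuclear value was higher and the cytosolic value lower, and the nuclear to cytosolic ratio was 1.30 after knockdown and 0.828 in the control. The shift was 0.65 with a counting error of 0.05. It ran from 0.62 to 0.65 under the other scalings. The locus is merged with AP001469.9, and its share of the fragments was not tested.

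NUP107 and NUP133, 2 outer ring subunits that bind each other, shifted in opposite directions. NUP107 had 27.6 FPKM in whole-cell, 29.04 FPKM in nuclear and 20.1 FPKM in cytosolic RNA after knockdown, against 19.8, 25 and 22.6 FPKM in the control. Its shift was 0.39 with a counting error of 0.07. NUP133 had 21.4 FPKM in whole-cell, 22.2 FPKM in nuclear and 32.9 FPKM in cytosolic RNA after knockdown, against 15.7, 26.3 and 27.8 FPKM in the control. Its shift was -0.49 with a counting error of 0.06. Both had about 1.4 times the control level in whole-cell RNA (1.40 and 1.36), so they shared a direction there. For each gene that ratio lay above those of both its fractions. These were 1.16 nuclear and 0.887 cytosolic for NUP107, and 0.841 and 1.18 for NUP133. The cause of this mismatch was not tested.

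RAE1 had the lowest shift, -0.58, just under 1.5-fold in size. XPO1 followed at the cytosolic end after NUP133, with -0.33 (counting error 0.04), on the values given above. ALYREF had -0.30 and NUP98 -0.27. At the nuclear end GLE1 had 0.27, TPR 0.26 and NUP43, an outer ring subunit, 0.26. The shift of NXF1 was -0.12 with a counting error of 0.13.

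**Figure D4:**
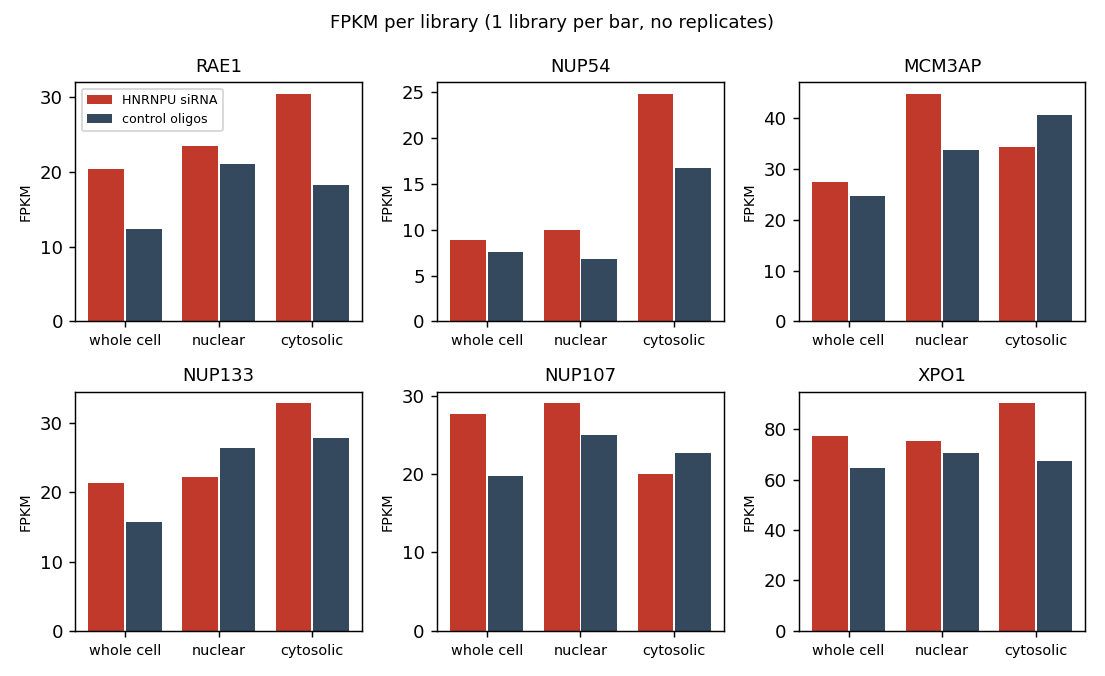
FPKM of 6 members in each of the 6 libraries, HNRNPU siRNA to the left of control oligos in each preparation, with 1 library per bar and so no error bars. RAE1, XPO1, NUP54 and NUP133 are highest in knockdown cytosolic RNA (30.4, 90.4, 24.8 and 32.9 FPKM). MCM3AP and NUP107 are higher in nuclear and lower in cytosolic RNA after knockdown, and NUP133 shows the opposite.

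Other genes of the pathway are described by the same counts, on the deposited scale only. They are to be read against the 24.6% of all loci analysed that were higher in all 3 preparations and the 13.2% that were lower. Among protein-coding loci of at least 5 FPKM these shares were 29.9% and 12.0%. The members' counts depended on the scaling, and those of the lists were not rescaled. Among 8 nucleoporins outside the 40, 4 were higher in all 3 preparations after knockdown and 0 lower, with median log2 ratios of 0.305, 0.184 and 0.131 for whole-cell, nuclear and cytosolic libraries. That whole-cell median is above the 0.12 of the member nucleoporins. Among 19 loci of other mRNA export factors, 7 were higher and 3 lower in all 3 preparations, with medians of 0.04, 0.10 and 0.04, and both counts are near the background. Import receptors and other karyopherins (21 loci) had 12 higher and 1 lower, with medians of 0.08, 0.22 and 0.06. Of the Ran cycle, 5 of 8 loci were higher in all 3 and 1 lower. Some loci of these lists are merged with other genes, such as RCC1 with SNHG3 and IPO11 with KIF2A. Their values are not those of the named gene alone. The median localization shift was 0.07 for the other nucleoporins, 0.16 for the other export factors, 0.14 for the karyopherins and 0.00224 for the Ran cycle, against -0.03 for member nucleoporins and -0.00499 for member export genes. The highest shifts of these lists, looked up after the values were seen, were those of the import receptors IPO9 (0.54), KPNA4 (0.50) and TNPO1 (0.50). In these lists 0 loci passed a shift of 1.5-fold, against 7.59% of all loci analysed to the nucleus and 9.20% to the cytosol. For the ratio of knockdown to control, 0 loci reached 1.5-fold one way in each preparation, a rule without a share of all loci here. In a single preparation 2 did, both higher, and they are named after their values were seen. Of all loci analysed 4.76% were at least 1.5-fold higher in whole-cell and 6.41% in cytosolic RNA. Among protein-coding loci of at least 5 FPKM these shares were 1.85% and 1.63%. NCBP3, a cap-binding protein listed under its older symbol C17orf85, had 13.1 FPKM in whole-cell RNA after knockdown and 8.36 FPKM in the control, and ENY2, a small TREX-2 subunit, 25.3 FPKM in cytosolic RNA after knockdown and 15.7 FPKM in the control.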

How the data were processed

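Strand-specific libraries of RNA depleted of ribosomal RNA were read on a HiSeq X-10 instrument, per the labels' protocols. The authors deposited FPKM values, 1 column per library. That unit is not in the header and was taken from the values and the named tools. Per the submitters' processing notes, the aligner TopHat2 (2.0.13), Cuffdiff (2.2.1), FastQC and CASAVA were used, and hg19 as well as mm9 is listed as a build. The scaling of libraries, the annotation and any use of strand in counting were not given in the sources used here. Neighbouring genes can be merged into a locus, which holds for 8 of the 40 members.

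Ratios are differences of log2(FPKM + 0.1), which understates the change of low loci, over loci whose mean reached 1 FPKM. With 1 library per group there was no test. Gene types and lengths came from GENCODE release 29 by symbol. The value of 1 fragment per kilobase came from the smallest value steps of single-exon loci (length less 220 bases) and gave estimated fragments and counting errors, which cover counting only. Python 3.11.15 ran the calculations (pandas 2.3.3, numpy 2.4.6, scipy 1.17.1) and drew the plots (matplotlib 3.10.9), and the scripts were tested on simulated libraries. Members, lists and rules were chosen with earlier results of these data known. Values in all libraries are given for members at the ends of each measure, other than RANBP2 and NUP35. They are also given for 8 genes always named (NUP98, TPR, NUP153, NXF1, XPO1, ALYREF, THOC2 and GLE1). Other pseudocounts, filters, scalings, a 2-fold rule and the removal of merged or duplicated loci were tried.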

Additional observations from a re-analysis of the deposited data

Results flagged for a closer look

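Relative to the control, knockdown went with a higher nuclear and a lower cytosolic value, or the reverse, in 3 members whose differences in both fractions exceeded their 95% counting interval. The log2 ratio for MCM3AP was 0.41 in the nucleus and -0.24 in the cytosol, a shift of 0.654. NUP133 had -0.25 in the nucleus and 0.24 in the cytosol, a shift of -0.49. NUP107 had 0.22 in the nucleus and -0.17 in the cytosol, a shift of 0.388. Each side rests on 1 library, and the difference was not tested. The share of all loci that meet the same rule is not given here. The 3 members thus have no background to be read against, and the counting interval covers neither culture nor library preparation.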

How the results depend on the processing

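Over 20 results, 156 of 186 values under other settings were classed as unmoved, a class that still holds sizeable changes. Without merged loci the whole-cell knockdown median of nucleoporins was 0.24, against 0.12. With quantile normalization the export genes had knockdown medians of 0.05 in whole-cell and 0.02 in nuclear RNA, against 0.13 and 0.09. The other 30 values are given here, among them 9 medians that changed sign. Absolute nuclear to cytosolic medians depended on the scaling. Nucleoporins had 0.28 after knockdown and 0.34 in the control with libraries scaled to the protein-coding median, 0.71 and 0.80 with equal totals (mitochondrial and small RNAs left out), and 0.50 and 0.42 with quantile normalization. All 6 are of opposite sign to the reported -0.24 and -0.19. The export genes had -0.17 and -0.22, 0.26 and 0.24, and -0.13 and 0.0571 in the same order, and the last of the control values and both with equal totals are of opposite sign to the reported -0.69 and -0.76, and the cause was not tested. The whole-cell knockdown median of nucleoporins was 0.0478, 0.0700 and 0.0531 under the 3 scalings, and their shift -0.0645 with equal totals. For the 1.5-fold counts that follow, the shares of all loci under the other settings are not given, so they describe the members only. In the control, 27 members were 1.5-fold apart between fractions with equal totals, against 17. Equal totals also moved the control median of protein-coding loci, from -0.61 to 0.39. Shifts of 1.5-fold numbered 2 with protein-coding and with equal-total scaling, against 1, and 0 without merged loci, which drops MCM3AP. Cytosolic differences numbered 2 with equal totals, against 1. Members lower in all 3 preparations were 2 with protein-coding and quantile scaling and 0 with equal totals or without merged loci. Members higher in all 3 ranged from 15 to 21. Of all loci, 17.3% were higher in all 3 with protein-coding scaling, 21.6% with equal totals and 19.2% with quantile normalization, against 24.6% as deposited. The shares lower were 19.0%, 14.75% and 17.3%, against 13.2%. At 2-fold, 0 members passed in whole-cell and cytosolic RNA and in the shift, 11 between fractions in the control and 12 after knockdown. No paired analysis was possible because each group has 1 library and the labels give no replicate numbers. Without a second library, counting error is the only error that could be estimated.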
